A study of Mus musculus with 9 samples.

Results

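The BCL2 family decides whether a cell survives or enters the mitochondrial pathway of programmed cell death. It was followed here through 10 listed genes in murine B cells of the germinal center (GC) that had or lacked the transcription factor FOXO1. The genes were Bcl2, Bcl2l1 and Mcl1 (pro-survival), Bcl2l11, Bid, Bbc3, Pmaip1 and Bmf (BH3-only) and Bax and Bak1 (effectors). All probe sets that the platform annotation gives to 1 of these genes alone were taken, which made 30 of the 45101 probe sets of the table, for 9 of the 10 genes and of the 18193 genes with such a probe set. Bax was not analysed here. The filter on low signals, which asked for the median of the array on at least 3 of the 9 arrays, kept 26 of the 30 probe sets and 8 of the 9 genes.

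Transcript levels were measured in splenic GC B cells sorted as B220hi, CD95hi and PNAhi from 10-week-old mice. Sheep red blood cells were injected on days 0 and 5, and the cells were taken on day 12. Every mouse carried Cg1-Cre, a recombinase that B cells switch on once they enter the germinal center, so the controls carried it too. The genotypes were FOXO1+/+ (WT, no floxed allele), FOXO1f/+ (HET, floxed on 1 allele) and FOXO1f/f (KO, floxed on 2). Each had 3 arrays, described in the sample labels as 1 animal per array, although the series' own design text speaks of pooled spleen cells. The sources used here give no sex, litter or batch.

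Proteins of this family meet at the outer membrane of the mitochondrion. The effectors BAX and BAK1 form pores in it, the pro-survival proteins hold them back, and the BH3-only proteins sense stress and either block the pro-survival proteins or activate the effectors directly. GC B cells are known for low BCL2, for their need of MCL1 and for readiness to die unless they are selected. FOXO factors are known to switch on Bcl2l11, which encodes BIM, and Bbc3, which encodes PUMA, when PI3K and AKT signaling is low.

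The KO cells had less Bcl2l11 and slightly more Bid than the WT cells. Of the 8 tested member genes, each represented by its brightest kept probe set, Bid rose, Bcl2l11 fell and 6 did not pass the test (limma, Benjamini-Hochberg adjusted p under 0.05). Over all 10331 genes 9.72% were called, 4.79% higher and 4.93% lower. Among probe sets of member genes, 4 of 26 were called, 2 of Bcl2l11, 1 of Bid and 1 of Bcl2, against 7.65% of all 23344 probe sets. The median log2 difference of the 8 genes was -0.024, next to 0.011 for all genes. In HET vs WT none of the 8 genes was called (limma). Over all genes 0.00968% were called, a single gene model, Gm34303. At an unadjusted p under 0.05 there were 2 members, Bcl2l11 and Bmf, against 3.98% of all genes.

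**Figure D1:**
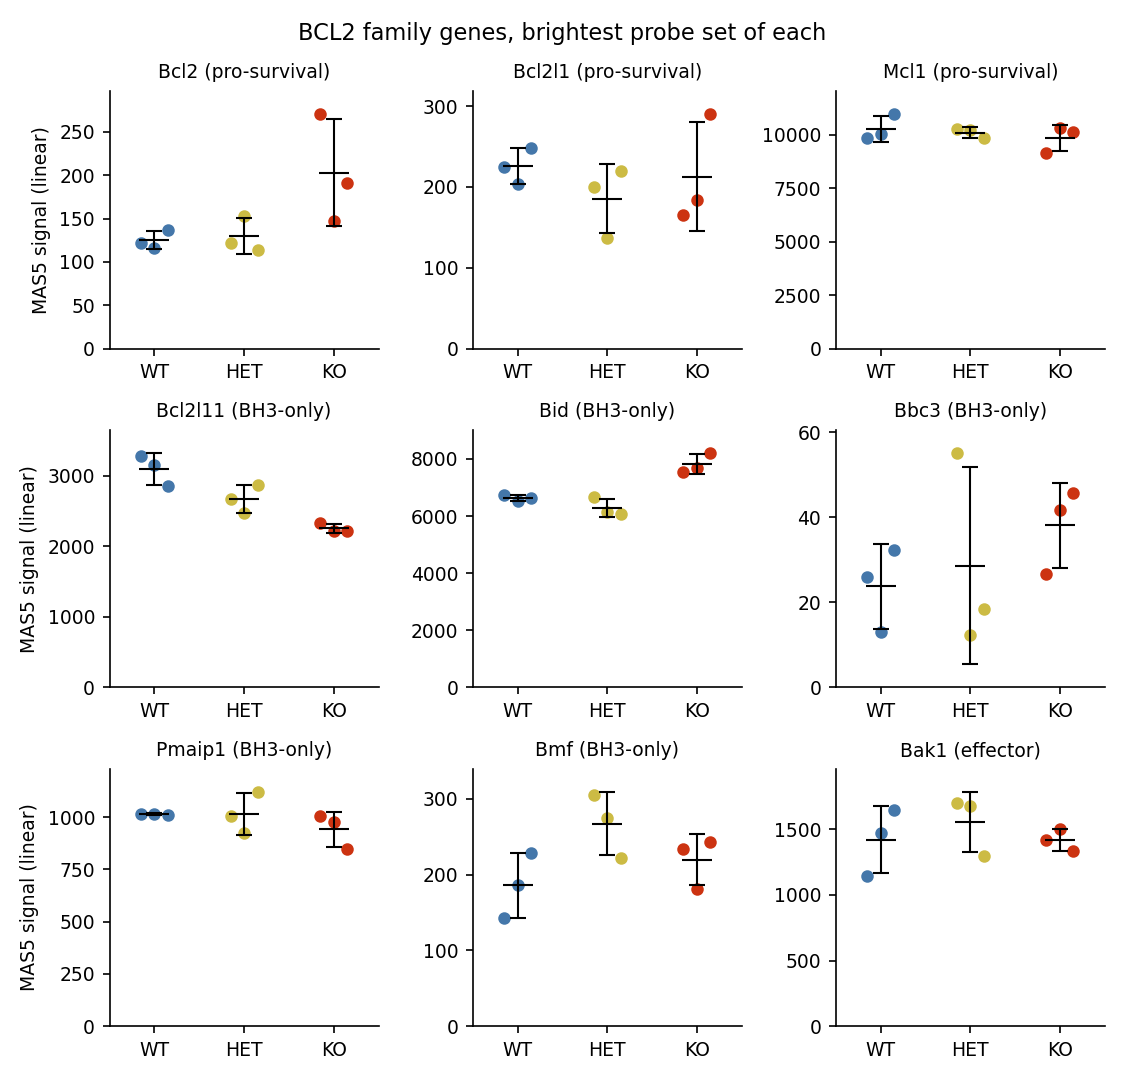
MAS5 signal on a linear scale (y axis) of the brightest probe set of 9 BCL2 family genes in WT, HET and KO arrays (x axis); dots are arrays, and the black marks give the mean ± SD of 3 arrays. Bcl2l11 lies lower on all 3 KO arrays (2216 to 2332) than on the WT arrays (2850.3 to 3284), and Bid higher (7556 to 8200.2 against 6527 to 6736). Over all probe sets, 11.1% lie lower and 15.4% higher in KO than in WT without overlap.

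Correlations of log2 signals ran from 0.978 to 0.989 within a genotype and from 0.970 to 0.987 between genotypes. The 3 brighter Foxo1 probe sets stood at 19.0%, 17.6% and 15.9% of the WT mean in KO, and at 65.4%, 59.8% and 55.5% of it in HET. The HET vs WT test called none of the 3 (log2 -0.61, -0.74 and -0.85, adjusted p = 0.999, 0.149 and 0.149). With only these 2 groups in the fit the brightest was called (adjusted p = 0.00228). The fourth, at 50.9 in WT and 69.2 in KO, was not lower in KO. Whether these lie in the deleted segment was not analysed here. All 10 GC B cell markers on the array were kept, and their summed signal ran from 48438 to 52201 in WT and from 47780.4 to 49788 in KO. Singly they went both ways in KO vs WT: Fas and Lmo2 rose, Gcsam, Rgs13 and Neil1 fell and 5 did not pass (limma). Markers of marginal zone B cells (7 of 7 kept) summed to 12669 to 13029 in WT, 12401 to 13754 in HET and 17004.0 to 18684 in KO. Markers of plasma cells (7 of 8 kept) summed to 24064 to 25429 in WT and 30144 to 32647 in KO. Markers of myeloid cells (8 of 15 kept) summed to 1244 to 2151 in WT, 1591 to 2953 in HET and 2586 to 4163 in KO, with Itgam, Cd14, Fcgr3, Csf3r, C1qa and C1qc below the array median on all 9 arrays. Markers of dendritic cells (3 of 6 kept) summed to 1178 to 1372 in WT, 1477 to 1527 in HET and 1464 to 1825 in KO, with Xcr1 and Siglech below the array median on all 9 arrays. Their part in the differences below was not tested. In sorted cells measured in bulk, fewer cells of a type and less RNA per cell cannot be told apart.

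Among the BH3-only genes, Bcl2l11 showed the clearest difference. BIM, its product, binds all pro-survival members and is a main inducer of death in lymphocytes. The brightest of 5 probe sets (1435448_at) gave signals of 3284, 3153 and 2850.3 on the WT arrays, 2675, 2478 and 2872 on the HET arrays and 2332, 2220.4 and 2216 on the KO arrays. Every KO array lay below every WT and every HET array, while the HET arrays overlapped the WT arrays. Of all probe sets 11.1% had their KO arrays below the WT arrays without overlap, and the share below both WT and HET was not analysed here. The KO mean was 72.9% and the HET mean 86.4% of the WT mean. In KO vs WT the gene fell by 0.45 on the log2 scale (SE 0.074, 95% interval -0.61 to -0.29, limma adjusted p = 0.00279). The HET vs WT difference was -0.21 (SE 0.074) and did not pass (adjusted p = 0.999, unadjusted p = 0.0143). Nor did the KO vs HET difference of -0.24 (SE 0.074, limma adjusted p = 0.0792). On this probe set the mean levels ran WT, HET, KO in rank, and the neighbours in that order were not separated by the test.

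FOXO1, the deleted factor, binds DNA through a known core, and whether it acts on Bcl2l11 here was not tested. Of the 2 RefSeq starts of Bcl2l11, the stretch of 250 bases before the 1 with a match to that core is shown. The same window of Bcl2, of which 1 of 4 tested probe sets was called higher in KO, stands beside it. Both are read 5′ to 3′ on the strand of the gene, from GRCm38.p6, and capitals mark the FOXO core GTAAACA or its reverse complement TGTTTAC.
Bcl2l11, chr2:128125788-128126037, + strand: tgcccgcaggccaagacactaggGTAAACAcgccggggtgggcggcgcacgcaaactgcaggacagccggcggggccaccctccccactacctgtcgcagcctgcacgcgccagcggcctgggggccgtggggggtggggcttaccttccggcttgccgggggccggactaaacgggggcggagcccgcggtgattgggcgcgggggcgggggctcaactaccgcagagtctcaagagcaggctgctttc
Bcl2, chr1:106714291-106714540, - strand: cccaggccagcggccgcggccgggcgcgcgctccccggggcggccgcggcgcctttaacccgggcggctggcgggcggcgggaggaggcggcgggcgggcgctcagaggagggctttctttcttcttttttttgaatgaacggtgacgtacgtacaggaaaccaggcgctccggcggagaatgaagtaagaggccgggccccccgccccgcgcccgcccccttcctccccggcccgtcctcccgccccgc

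In Bcl2l11 the match lies 227 to 221 bases before the start. The window before its other start held none. Of the members, 9 had RefSeq promoters, 16 in all, and 2 of these windows held the motif, that of Bcl2l11 and 1 of the 3 windows of Bbc3, where TGTTTAC lies 167 to 161 bases before the start. Over all 32851 promoter windows of this length 3.17% held it on either strand, and over 27025 genes 3.54% had it in at least 1 window. A match is a run of letters and not evidence of binding. Its absence from the Bcl2, Bid, Mcl1 and other windows says only that these letters are not there. The Bcl2l11 and Bcl2 windows were rich in G and C (72.0% and 74.8%, against a median of 52.4% over all windows). Pmaip1 had no entry.

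The other 4 probe sets of Bcl2l11 were also lower in KO on average. They are read from the same RNA, so they are not further replicates. The next brightest (1456005_a_at) gave 1639.9, 1557 and 1584 in WT, 1232, 1252 and 1684 in HET and 1112, 1249 and 1023 in KO. On this probe set the KO arrays again lay below all WT arrays, and 1 HET array (1684) stood above them. It fell by 0.50 in KO vs WT (SE 0.12, limma adjusted p = 0.0216). The 3 dimmer probe sets had log2 differences of -0.39 (adjusted p = 0.313), -0.68 (adjusted p = 0.0667) and -0.80 (adjusted p = 0.0817) and did not pass. Their KO means were 75.6%, 62.1% and 56.0% of WT, and their HET means 94.0%, 102% and 75.8%. The order WT, HET, KO thus did not hold on 1435449_at, where HET was not below WT. On the 4 brightest the KO arrays stood below the WT arrays without overlap, as did 11.1% of all probe sets. The dimmest (1426334_a_at) was below the array median on all 3 KO arrays and passed the filter only through its WT arrays, so its KO level is only bounded and its direction carries no weight.

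Bid encodes the BH3-only protein that caspase-8 cleaves, which links death receptors to mitochondria. Its brightest probe set (1417045_at) read 6736, 6527 and 6629 in WT, 6656, 6136 and 6076 in HET and 7556, 7699 and 8200.2 in KO. The KO arrays stood above all others, and the HET and WT arrays overlapped. Of all probe sets 15.4% had their KO arrays above the WT arrays without overlap, and the share above both WT and HET was not analysed here. Bid was higher by 0.24 in KO vs WT (SE 0.051, limma adjusted p = 0.0155) and by 0.31 in KO vs HET (SE 0.051, adjusted p = 0.00364). Its KO mean was 118% of WT, so the change was small beside that of Bcl2l11. Leaving out WT replicate 2 ended the KO vs WT call (adjusted p = 0.0659), as did leaving out KO replicate 3 (adjusted p = 0.0553). It was also lost with each array centred on its median (0.12, adjusted p = 0.205), in eBayes without trend (adjusted p = 0.1003) and when its probe sets were averaged (adjusted p = 0.0589).

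A second Bid probe set (1448560_at) read 365, 367 and 336 in WT, 357, 315 and 351 in HET and 414, 478 and 518 in KO. It differed by 0.39 in KO vs WT (SE 0.12, limma adjusted p = 0.0643) and rose by 0.46 in KO vs HET (SE 0.12, adjusted p = 0.0427). The third (1447873_x_at) did not follow: it read 178, 190.3 and 254 in WT and 349.7, 211 and 159 in KO (0.15, SE 0.26, adjusted p = 0.794). In KO vs HET Bid was the only member gene called by its brightest probe set, and 2 of the 26 probe sets were called, both of Bid. The background there was 7.16% of genes (3.45% higher and 3.72% lower) and 5.58% of probe sets. KO vs WT and KO vs HET share the KO arrays, so the 2 Bid calls are not independent.

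**Figure D2:**
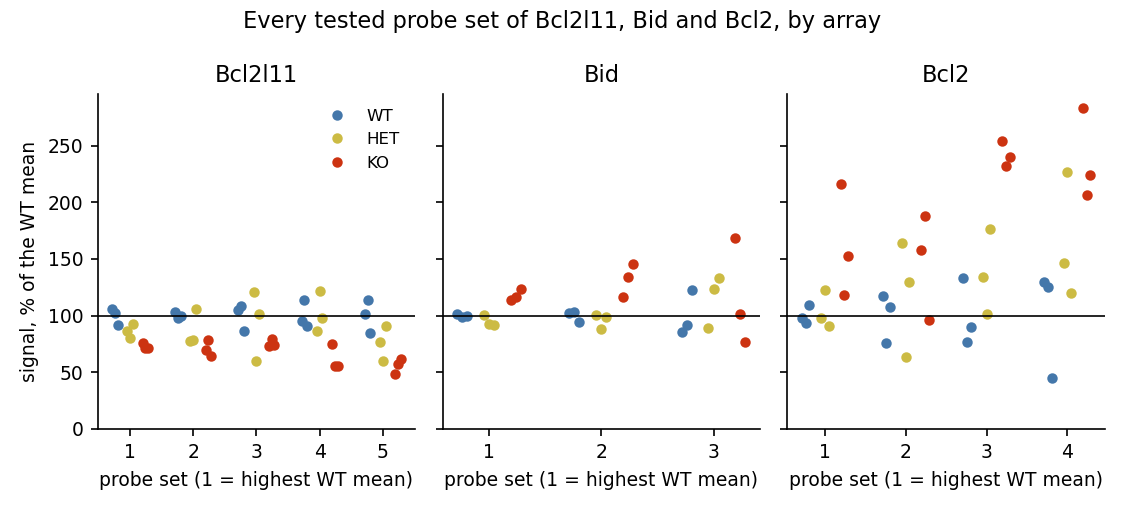
Signal of every tested probe set of Bcl2l11, Bid and Bcl2 in percent of its WT mean (y axis), by probe set in order of WT mean (x axis), with 1 dot per array coloured by genotype. The KO dots lie below the WT dots on the 4 brightest Bcl2l11 probe sets, as on 11.1% of all probe sets. They lie above the WT dots on 2 of 3 Bid probe sets and on 1457687_at and 1443837_x_at of Bcl2, as on 15.4% of all. Probe sets of the same gene read the same RNA, so they are not independent counts. The last Bcl2l11 probe set passed the filter only through its WT arrays. The last Bcl2 probe set passed only through its KO arrays, so neither is counted here and neither carries weight.

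Pmaip1, Bmf and Bbc3 complete the BH3-only genes, and no probe set of them was called. Pmaip1 encodes NOXA, a p53 target that chiefly binds MCL1. It read 1016, 1015 and 1008 in WT, 1004, 922 and 1119 in HET and 1003, 977 and 846 in KO. Its KO arrays lay just below the tightly grouped WT arrays, as on 11.1% of all probe sets, and the HET arrays overlapped both. The KO vs WT difference was -0.11 (95% interval -0.32 to 0.10, limma adjusted p = 0.551).

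Bmf encodes a BH3-only protein tied to the cytoskeleton. Its brightest probe set (1454880_s_at) read 143, 186 and 228 in WT, 305, 275 and 223 in HET and 234, 181 and 244 in KO. HET stood highest, with 2 of its arrays above every WT and KO array. The HET vs WT difference of 0.53 (SE 0.19) did not pass (limma adjusted p = 0.999, unadjusted p = 0.0176), nor did KO vs WT (0.25, SE 0.19, adjusted p = 0.486). A second Bmf probe set (1458325_x_at) showed no such order, with means of 150.5, 153 and 141 in WT, HET and KO. The third was not kept.

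Bbc3, the p53 and FOXO target that encodes PUMA, had 1 probe set. It read 25.9, 12.9 and 32.4 in WT, 55.1, 12.3 and 18.4 in HET and 26.7, 41.8 and 45.7 in KO. All but 1 HET array were below the array median, so the gene was not tested and its differences were not detectable at this signal.

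Of the pro-survival genes, Bcl2 was called higher in KO on 1 of its 4 tested probe sets, which was not its brightest. BCL2 is the founding member of the family and keeps naive and memory B cells alive. The brightest probe set (1457687_at) read 122, 117 and 137 in WT, 122, 153 and 114 in HET and 270.2, 148 and 191 in KO. The lowest KO array was above the highest WT array but below the highest HET array. The KO mean was 162% of WT, the HET mean 103%. The KO vs WT difference was 0.65 (SE 0.22, 95% interval 0.18 to 1.12) and did not pass (limma adjusted p = 0.0937). Without KO replicate 2, the lowest of the KO arrays, it was 0.85 and called (adjusted p = 0.0419). Without KO replicate 1, the highest of them, it was 0.42 and did not pass (limma adjusted p = 0.253). The difference thus depended on single KO arrays in both directions.

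The third Bcl2 probe set by brightness (1443837_x_at) read 58.7, 33.8 and 39.5 in WT, 58.9, 44.7 and 77.6 in HET and 112, 102 and 105 in KO. It rose by 1.27 in KO vs WT (SE 0.27, limma adjusted p = 0.0129). The suffix of its name marks a probe set whose probes may also match other transcripts, and 2 of 3 WT arrays were below the array median. The fourth (1437122_at) read 38.1, 36.7 and 13.2 in WT and 83.2, 60.4 and 65.8 in KO (1.31, SE 0.39, adjusted p = 0.0612), with all 3 WT arrays below the array median. It passed the filter only through its KO arrays, so its difference carries no weight. The second (1440770_at) overlapped between groups (0.51, SE 0.36, adjusted p = 0.441), and the other was not kept. On the brightest and the third the KO arrays stood above the WT arrays without overlap, as did 15.4% of all probe sets. The mean of its kept probe sets gave 0.93 (adjusted p = 0.0118), but it includes the probe set kept only through KO, so it lends no support.

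Bcl2 is also made by T cells and by resting B cells. Of 13 T cell markers on the array 3 were kept, and Cd3d, Cd3g, Cd4, Cd8b1, Il7r, Cd28, Icos and Trat1 were below the array median on all 9 arrays. The summed T cell signal ran from 295 to 355 in WT, 260.2 to 458 in HET and 205 to 341 in KO. The summed signal of 8 naive and follicular B cell markers ran from 4793 to 5208 in WT, 5210.5 to 5705 in HET and 4649.5 to 5121 in KO, with Ccr7 below the array median throughout. The naive and follicular markers went both ways in KO vs WT: of 7 tested, Ccr6 and Cxcr5 rose, Fcer2a and Cd55 fell and 3 did not pass (median 0.15). The marginal zone sum, given above, was higher in KO. The part of these cells in the Bcl2 values was not tested.

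Mcl1 encodes the short-lived survival protein on which GC B cells depend. Its 6 probe sets hardly moved. The brightest (1437527_x_at) read 9840.0, 10049 and 10961 in WT, 10282, 10220.4 and 9836 in HET and 9172, 10305 and 10145 in KO. The groups overlapped, and the KO vs WT difference was -0.059 (SE 0.055, 95% interval -0.18 to 0.062, limma adjusted p = 0.582). The interval thus leaves room for a fall of Mcl1 of up to 0.18 on the log2 scale. The other 5 had KO means between 97.5% and 102% of WT, and none was called in any comparison.

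Bcl2l1 encodes BCL-XL, a survival protein that activated B cells induce. Its brightest probe set (1420888_at) read 225, 204 and 248 in WT, 200.0, 137 and 219.7 in HET and 165, 183 and 289.7 in KO. KO replicate 3 was the highest of all arrays and KO replicate 1 the second lowest, and the KO arrays spanned the WT arrays (-0.12, 95% interval -0.61 to 0.37, limma adjusted p = 0.803). The interval is wide and includes a fall of the size seen for Bcl2l11. The other 2 kept probe sets differed by 0.063 and 0.18 and did not pass (adjusted p = 0.903 and 0.727). Over the 9 arrays they ran against the brightest (Pearson r = -0.45 and -0.48, a description).

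Among effectors, Bak1 was measured by 2 probe sets. BAK1 sits in the outer mitochondrial membrane and forms pores once activated. The brighter (1418991_at) read 1141, 1474 and 1644 in WT, 1698, 1678 and 1296 in HET and 1417, 1499 and 1334 in KO. All 3 KO arrays lay within the WT range. The KO vs WT difference was 0.011 (SE 0.13, 95% interval -0.28 to 0.30, limma adjusted p = 0.974). The dimmer one (1425716_s_at) had a difference of 0.12 (adjusted p = 0.817).

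**Figure D3:**
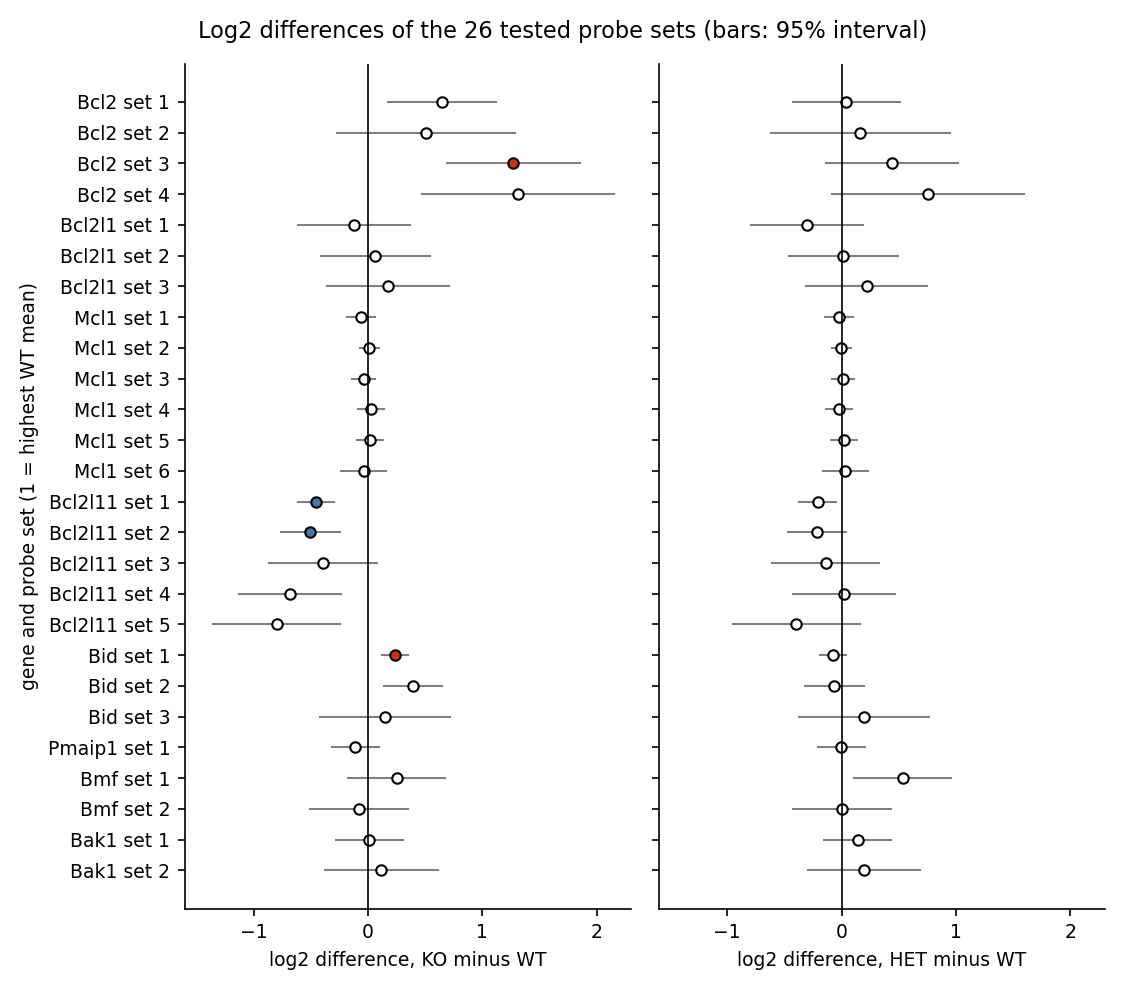
Log2 differences (x axes) of the 26 tested probe sets, by gene and probe set (y axis), for KO minus WT on the left and HET minus WT on the right; bars are 95% intervals, and filled dots passed at an adjusted p under 0.05 (red higher, blue lower). In KO minus WT 4 dots are filled, 2 of Bcl2l11, 1 of Bid and 1 of Bcl2, and in HET minus WT none is.

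Pro-survival and pro-death members were set against each other within each array. Each gene's log2 signal was centred on its WT mean, so that no probe set's level was compared with another's, and the mean of the 4 kept BH3-only genes was taken from the mean of the 3 pro-survival genes. No p is given, since the members were chosen with earlier results known. The difference was 0.028, -0.10 and 0.073 on the WT arrays, -0.20, -0.15 and -0.13 on the HET arrays and 0.13, 0.064 and 0.32 on the KO arrays. HET arrays stood below all others, and the KO arrays (mean 0.17 ± 0.13, SD, n = 3) overlapped the WT arrays.

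The KO mean of this difference rested on Bcl2. With Bcl2 left out, a choice made after seeing the data, it was -0.073, with -0.33, -0.063 and 0.18 on the KO arrays. The HET arrays then read -0.21, -0.36 and -0.098. KO replicate 1 lay among them, so HET no longer stood below all others. The BH3-only mean itself hardly moved in KO (-0.018 ± 0.057, SD, n = 3), with Bcl2l11 lower and Bid higher. The pro-survival mean minus Bak1, the effector measured, was 0.14 ± 0.25 in KO and -0.23 ± 0.24 in HET (SD, n = 3), and the KO arrays overlapped the WT arrays.

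The 2 genes whose individual shifts were largest in size, Bcl2 and Bcl2l11, can be read as a pair chosen after their values were seen. The log2 ratio of Bcl2 to Bcl2l11, centred on WT, was -0.12, -0.13 and 0.25 on the WT arrays and 0.17, 0.61 and -0.028 on the HET arrays. On the KO arrays it was 1.51, 0.71 and 1.08, above every other array. Because the pair was chosen for these shifts, the ratio lends no support to the values of either gene.

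**Figure D4:**
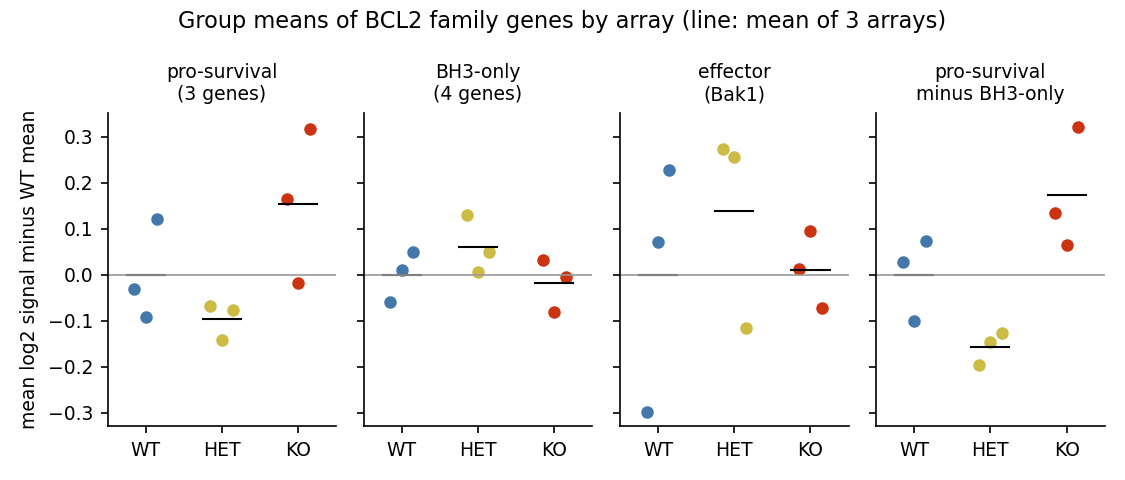
Mean log2 signal minus its WT mean (y axes) for pro-survival, BH3-only and effector genes and for pro-survival minus BH3-only, by genotype (x axis); dots are arrays and lines the mean of 3 arrays. In the last panel the HET arrays lie from -0.20 to -0.13 and the KO arrays from 0.064 to 0.32.

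The genes around the family were read from 6 lists holding 96 genes, of which 85 had a probe set of their own and 73 were tested. In KO vs WT 4 rose, 7 fell, the deleted Foxo1 among them, and the rest did not pass (limma). Over all genes 4.79% were called higher and 4.93% lower. HET vs WT called none of the 73 (limma; 4 at an unadjusted p under 0.05, against 3.98% of all genes).

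Of 7 other BCL2 family genes tested, Bnip3 fell and 6 did not pass (median -0.048). Bnip3 encodes a BH3-like protein of mitophagy and hypoxia. It read 712, 629 and 453 in WT, 751, 582 and 697 in HET and 283, 353 and 329 in KO, with no overlap between KO and the others, and fell by 0.87 (SE 0.16, limma adjusted p = 0.00689). With HET left aside, KO arrays lay below the WT arrays without overlap on 11.1% of all probe sets. Bcl2l13 (0.35, adjusted p = 0.0563), Bad (-0.32, adjusted p = 0.0823) and Bcl2l2 (0.52, adjusted p = 0.155) did not pass. Bcl2l13 was called without KO replicate 2 (adjusted p = 0.0247) and Bad with arrays centred on their median (adjusted p = 0.0173). Bad encodes a BH3-only protein that AKT silences by phosphorylation, and Bcl2l2 the survival protein BCL-W.

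Of 18 apoptosome genes, caspases and their inhibitors 0 passed in KO vs WT in limma, with a median of -0.022. At an unadjusted p under 0.05 there were 6, against 25.1% of all genes. With arrays centred on their median, which moved all genes down, Birc5, Casp2, Cycs, Dffa and Vdac2 were called lower (adjusted p 0.0102 to 0.0486). Casp2 was also called when probe sets were averaged (adjusted p = 0.0453), and Vdac2 without WT replicate 1 (adjusted p = 0.01997). Apaf1, the scaffold of the apoptosome, differed by -0.055 (adjusted p = 0.726) and Xiap, a caspase inhibitor, by 0.11 (adjusted p = 0.297). In KO vs HET, Casp2 (-0.28, limma adjusted p = 0.0326) and Birc5, which encodes survivin (-0.22, adjusted p = 0.0209), fell. Casp2 lost its call in 7 of 22 other settings (adjusted p up to 0.111), without HET replicate 1 or 2 or KO replicate 1 or 3 among them, and Birc5 in 5 of 21 (adjusted p up to 0.135), without HET replicate 1 or KO replicate 1 or 2 among them.

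Of 7 death receptor genes tested, 2 rose and 5 did not pass (median 0.030). Fas, whose protein CD95 was also a sorting marker, read 3118, 3108 and 3191 in WT and 3662, 3752 and 4162 in KO (0.30, SE 0.069, limma adjusted p = 0.0215). Cflar encodes FLIP, which keeps caspase-8 in check, and rose by 0.33 (SE 0.084, adjusted p = 0.0336). These KO vs WT calls were lost in 6 and 8 of 22 other settings, with adjusted p up to 0.140 for Fas and 0.139 for Cflar. The lost settings include leaving out WT replicate 2, WT replicate 3 or KO replicate 3 for each, WT replicate 1 for Fas and KO replicate 2 for Cflar.

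Of 12 genes of the p53 pathway tested, 1 rose, 1 fell and 10 did not pass (median -0.012). Cdkn1a, the cell cycle inhibitor p21, read 176, 166 and 191 in WT and 337, 296 and 557 in KO and rose by 1.09 (SE 0.23, limma adjusted p = 0.0144). Without WT replicate 2 it did not pass (adjusted p = 0.0599). Trp53inp1, which is also tied to autophagy, fell by 0.32 (SE 0.065, adjusted p = 0.0107), a call lost in eBayes without trend (adjusted p = 0.0705).

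Of 14 regulators of BCL2 family proteins, 2 fell and 12 did not pass (median -0.049). Dusp6, a phosphatase that turns off ERK, a kinase that marks BIM for degradation, read 1328, 1339 and 1357 in WT, 1009, 1106 and 1008 in HET and 657, 654 and 511 in KO. The 3 genotypes did not overlap, and Dusp6 fell by 1.15 in KO vs WT (SE 0.10, limma adjusted p = 3.23e-05). KO arrays below the WT arrays without overlap were seen on 11.1% of all probe sets, and the share for all 3 genotypes was not analysed here. Pim1, a survival kinase that acts on BAD, fell by 0.35 (SE 0.066, adjusted p = 0.00689), a call lost in eBayes without trend (adjusted p = 0.0566).

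Of 15 transcriptional regulators, 1 rose and 3, the deleted Foxo1 among them, fell. Atf4 fell by 0.25 (SE 0.055, limma adjusted p = 0.0154) and its target Trib3 by 0.91 (SE 0.22, adjusted p = 0.0253). Runx3, a factor linked to Bcl2l11 in other cells, rose by 0.44 (SE 0.12, adjusted p = 0.0398), a call lost in 11 of 22 other settings, among them without any 1 WT or KO array or HET replicate 1 (adjusted p up to 0.139). Trib3 lost its call without WT replicate 1, WT replicate 3, KO replicate 1 or KO replicate 3 and without the filter (adjusted p up to 0.0936), and Atf4 without WT replicate 2 or KO replicate 2 and in eBayes without trend (adjusted p up to 0.0836). Neither of the paralogs that bind the same core passed, Foxo3 at 0.14 (adjusted p = 0.305) and Foxo4 at 0.19 (adjusted p = 0.313).

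For the 2 member genes called, the 3 genes with the most similar course over the 9 arrays were found by Pearson r, as a description with no p. All 9 arrays enter, so the difference between genotypes is part of each r. For Bcl2l11 these were the non-coding G530011O06Rik (r = 0.950), the histone demethylase gene Phf2 (r = 0.935) and the actin-binding protein gene Coro1c (r = 0.935). The mean of Phf2 was 3606 ± 192 in WT, then 3317 ± 134 in HET and lowest in KO at 2789 ± 88.7 (SD, n = 3). For Bid they were the ETS factor gene Ets2 (r = 0.968), Pias3 (r = 0.967) and Nxpe4 (r = 0.964). Pias3 and Nxpe4 did not pass in KO vs WT (limma adjusted p = 0.113 and 0.115). Nxpe4 was below the array median on 2 WT and 2 HET arrays. It passed the filter only through its KO arrays, so its r carries no weight. Ets2 was highest in KO at 5797 ± 181, with 4527 ± 243 in WT and 4368 ± 214 in HET (SD, n = 3), the same order as Bid.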

How the data were processed

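The values are linear intensity signals that the authors made with MAS5, as the submitters' processing notes name it. The sources used here name no version of it. In the deposited table each array had a mean of 500.0 after trimming 2% at each end, and such scaling fixes the average signal of an array and hides any shift in total RNA. The array medians were 42.9 to 45.0 in WT and HET and 47.4 to 48.0 in KO.

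Signals were analysed as log2(signal + 2.09), 2.09 being the 10th percentile of all signals, which understates changes of dim probe sets. After 64 control probe sets were left out, those at or above the array median on at least 3 of 9 arrays were kept (23344). Linear models over all 9 arrays were fitted to these with limma 3.58.1 (lmFit, eBayes with trend) in R 4.3.3, for KO vs WT, HET vs WT and KO vs HET. Adjusted p-values are two-sided, from limma, with Benjamini-Hochberg adjustment over all kept probe sets, and calls were made under 0.05. Counts of genes take the kept probe set with the highest mean of each gene (10331 genes). Of 34958 probe sets with 1 symbol, 34754 were matched to RefSeq by Entrez identifier, and 0 symbols changed. Probe sets with several symbols were named for none.

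Genes named are all members, up to 4 genes of each list by adjusted p with any called, and the 3 genes most like each called member. The members and lists were chosen with earlier results of these data known. Arrays were numbered in order of deposition and are not paired. The p-values test differences between groups against the spread between these arrays, which eBayes moderates with a trend over all kept probe sets. The number of arrays limits the precision. The fit was tested on simulated data. Alternatives covered the offset, filter, scaling, variance model, array weights, choice of probe set, groups in the fit and each array left out. Promoter windows came from RefSeq (GRCm38.p6). Some listed genes were not analysed here.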

Additional observations from a re-analysis of the deposited data

How the results depend on the processing

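Over 22 other settings Bcl2l11 was called lower in KO vs WT in all 22 (log2 -0.57 to -0.41, limma adjusted p 3.03e-04 to 0.0241), Bid higher in 17 (adjusted p 0.00282 to 0.205) and Bcl2, by its brightest probe set or their mean, in 2 (adjusted p 0.0118 to 0.253), the averaged value including a probe set kept only through its KO arrays. Mcl1, Bcl2l1, Pmaip1, Bmf and Bak1 were called in none of the 3 comparisons. For Bmf this covers 21 settings, as all its kept probe sets have a shared suffix. The 2 member genes called in KO vs WT became 1 with arrays centred on their median and 1 in eBayes without trend, and 1 to 3 when an array was left out. The 1 called in KO vs HET became 2 with arrays centred on their median, Bcl2l11 joining (adjusted p = 0.0126), and 0 in eBayes without trend and 0 when probe sets of a gene were averaged.

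Over all genes the 1004 calls in KO vs WT became 1703 with arrays centred on their median, 655 in eBayes without trend, and 590.0 to 951 when an array was left out (607 without WT replicate 2, lowest without WT replicate 3). Centring moved the median KO vs WT difference by -0.12 and the split from 495 higher and 509 lower to 338 and 1365. In KO vs HET the 740.0 calls became 430.0 in eBayes without trend and 406 to 658 when an array was left out (lowest without HET replicate 2, 460.0 without HET replicate 3, 489 without KO replicate 2). In HET vs WT the 1 call became 3 with only the 2 groups compared and 1 to 2 when an array was left out (2 without WT replicate 3, HET replicate 2 or KO replicate 3). The KO balance of pro-survival over BH3-only genes, 0.17, was 0.40 when probe sets of a gene were averaged and -0.073 with Bcl2 left out, an alternative chosen after seeing the data. Unless the setting's own construction shows it, the cause was not tested. No paired analysis was possible because no 2 genotypes share a number in the labels.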
